A study of Mus musculus with 6 samples.

Results

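The 5 genes described here belong to the Ifitm family (interferon-induced transmembrane proteins): Ifitm1, Ifitm2, Ifitm3, Ifitm6 and Ifitm10. They were taken by gene symbol from the 21851 genes of the deposited tables, and all 5 were found. The family was chosen by the FPKM values of its members under the 2 diets, so those values are a description, and their place in the fit across all genes, given further on, is no independent evidence. RNA was sequenced from bone marrow cells of wild-type (WT) mice on a control diet (CD, 3 libraries) or on a high cholesterol diet (HCD, 3 libraries), each for 3 months. The label of the sorted cells is long-term haematopoietic stem cell (LT-HSC), and the gate, per the series' design text, took lineage-negative cells positive for KIT and SCA1 and negative for CD34 and CD135. All groups are of the same genotype and tissue, and diet is the difference that the labels give. The labels used here name no strain, age or number of animals behind a library, so the spread between libraries may be technical.

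IFITM proteins are small membrane proteins with a shared CD225 domain that hinder the fusion of enveloped viruses with cell membranes. IFITM1 acts mostly at the cell surface, and IFITM2 and IFITM3 mostly on endosomes and lysosomes. Type I and type II interferons bind their receptors, activate JAK kinases and STAT proteins, and raise the transcription of Ifitm genes along with many other interferon-stimulated genes. Stem cells of several tissues are known to express some of these genes without interferon treatment.

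Ifitm1, Ifitm2, Ifitm3 and Ifitm6 lie within 63.1 kb of each other on mouse chromosome 7 (GRCm38, GENCODE vM21), and Ifitm10 lies 1.31 Mb further along the same chromosome. Ifitm2 spans chr7:140954837-140955987 on the minus strand and Ifitm1 chr7:140967221-140969825 on the plus strand. Ifitm3 spans chr7:141009586-141010770 and Ifitm6 chr7:141015699-141017924, both on the minus strand, as is Ifitm10 at chr7:142325837-142373753. Promoter sequences were matched by symbol for all 5 members in the RefSeq table of build GRCm38.p6, which gives 250 bases before to 50 bases after each annotated start. Those of the 4 clustered genes are shown because these neighbours differ in how they stand between the diets. Of each window only the stretch before the RefSeq start that lies outside the gene's GENCODE exons is printed, 5′ to 3′ on the gene's own strand. Ifitm1 and Ifitm6 also have GENCODE transcripts that start further upstream, and their printed stretches lie in the first intron of those. Capitals mark the core of an interferon-stimulated response element (ISRE), searched on both strands as GAAA, any 2 bases and GAAA again.
Ifitm1, chr7:140967826-140968027, plus strand: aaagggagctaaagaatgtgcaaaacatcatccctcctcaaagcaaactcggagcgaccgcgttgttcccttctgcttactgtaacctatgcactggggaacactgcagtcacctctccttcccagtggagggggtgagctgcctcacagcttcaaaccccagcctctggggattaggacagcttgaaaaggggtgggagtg
Ifitm2, chr7:140955988-140956211, minus strand: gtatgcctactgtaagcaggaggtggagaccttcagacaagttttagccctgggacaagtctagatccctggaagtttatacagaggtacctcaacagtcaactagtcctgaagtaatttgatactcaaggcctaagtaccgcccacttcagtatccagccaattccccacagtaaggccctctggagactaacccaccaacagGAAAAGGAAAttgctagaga
Ifitm3, chr7:141010771-141010994, minus strand: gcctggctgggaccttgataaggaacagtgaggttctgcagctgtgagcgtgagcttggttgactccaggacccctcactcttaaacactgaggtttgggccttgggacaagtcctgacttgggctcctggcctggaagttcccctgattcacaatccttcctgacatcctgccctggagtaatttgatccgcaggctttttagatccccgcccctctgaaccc
Ifitm6, chr7:141016909-141017142, minus strand: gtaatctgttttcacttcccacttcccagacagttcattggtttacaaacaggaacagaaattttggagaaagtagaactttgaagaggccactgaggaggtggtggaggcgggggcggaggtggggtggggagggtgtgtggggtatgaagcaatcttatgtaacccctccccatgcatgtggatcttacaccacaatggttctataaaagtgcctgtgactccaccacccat

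The Ifitm2 window held the core once, 46 bases before the RefSeq start. The Ifitm3 window held it 2 times, at bases 3 and 20 after the RefSeq start, inside the first exon.
Ifitm3 element, chr7:141010716-141010742, minus strand: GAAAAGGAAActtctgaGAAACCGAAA
Between those cores lies a match to the gamma-activated site (GAS) pattern TTCNNNGAA, which overlaps the second core. Another GAS match lies 10 bases before the RefSeq start of Ifitm6, inside a GENCODE exon of that gene and so outside the printed stretch. The windows of Ifitm1 and Ifitm10 held neither pattern. Of 32817 promoter windows of this length, 3.43% held the ISRE core and 8.29% the GAS pattern. Among tested genes outside the family that interferon is known to raise, 21 of the 42 with a window had the ISRE core, against 3.81% of the 8313 tested genes with a window. The windows of the 4 clustered genes held 47.3% to 53.0% G and C, near the median of 52.7% over all windows, and those of Ifitm10 51.3% to 73.7%. A match is a description of letters and does not show binding.

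Ifitm1, Ifitm2 and Ifitm3 were among the abundant transcripts of these cells. Under HCD, Ifitm1 stood 1.32-fold above its CD level and Ifitm3 at 0.874 of it, while the Ifitm2 values of the diets overlapped. Values are FPKM, fragments scaled to transcript length and library depth, as deposited. Ifitm1 measured 284, 269 and 270 FPKM in CD replicates 1, 2 and 3 and 355, 381 and 351 FPKM in HCD replicates 1, 2 and 3. Every HCD library was above every CD library, with means of 362 ± 16.4 (SD, n = 3) and 274 ± 8.34 FPKM. Ifitm3, which encodes the most studied antiviral member, measured 303, 326 and 296 FPKM in the CD libraries and 266, 266 and 275 FPKM in the HCD libraries. Every HCD library was below every CD library, with means of 269 ± 4.84 and 308 ± 15.6 FPKM. Ifitm2 measured 344, 354 and 339 FPKM in CD and 340, 391 and 368 FPKM in HCD. Its HCD replicate 1 lay inside the CD range and the other HCD libraries above it, with means of 367 ± 25.4 and 346 ± 7.84 FPKM.

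**Figure D1:**
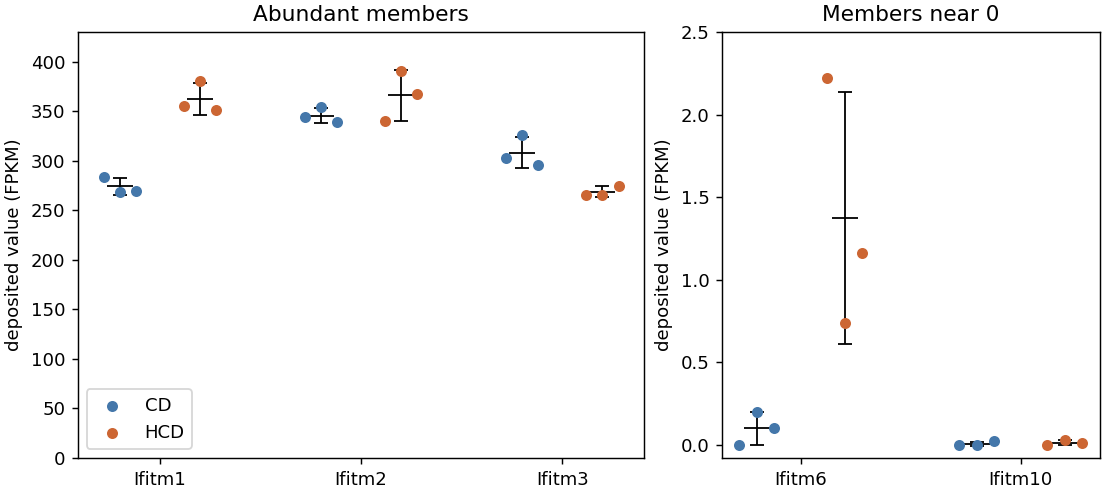
Deposited FPKM (vertical axes) of the 5 members in each library, CD in blue and HCD in orange, with the mean and SD (n = 3) as black bars. Ifitm1 is higher in all HCD libraries (351 to 381 against 269 to 284 FPKM), Ifitm3 is lower in all of them (266 to 275 against 296 to 326 FPKM), and the scale on the right panel is far smaller.

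The order of the levels differed between the diets. In CD it was Ifitm2, then Ifitm3, then Ifitm1, with no overlap between neighbours. In HCD the ranges of Ifitm2 and Ifitm1 overlapped, and Ifitm3 lay below both in every library. Among the 10676 genes that reached 1 FPKM in 3 or more libraries, Ifitm1 went from rank 175 to rank 144 from the top and Ifitm3 from rank 152 to rank 197. Ifitm2 had rank 142 in both diets. These 10676 genes were the ones tested, and 3 of the 5 members were among them.

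Ratios between members within a library do not depend on how libraries are scaled. Ifitm1 over Ifitm3 was 0.939, 0.827 and 0.912 in the CD libraries and 1.33, 1.43 and 1.28 in the HCD libraries. The mean ratio was 0.89 ± 0.06 under CD and 1.35 ± 0.08 under HCD (SD, n = 3), and the groups did not overlap. Ifitm1 over Ifitm2 was 0.79 ± 0.03 and 0.99 ± 0.05, and Ifitm3 over Ifitm2 was 0.89 ± 0.02 and 0.74 ± 0.05, again without overlap. The summed level of the 3 genes was 928 ± 22.1 FPKM under CD and 998 ± 39.2 FPKM under HCD. Of that sum Ifitm2 held 37.2% ± 0.31 and 36.7% ± 1.18, Ifitm1 29.6% ± 1.07 and 36.3% ± 0.87, and Ifitm3 33.2% ± 0.99 and 27.0% ± 1.18. A ratio shows unequal change between genes and not which of them stayed level.

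**Figure D2:**
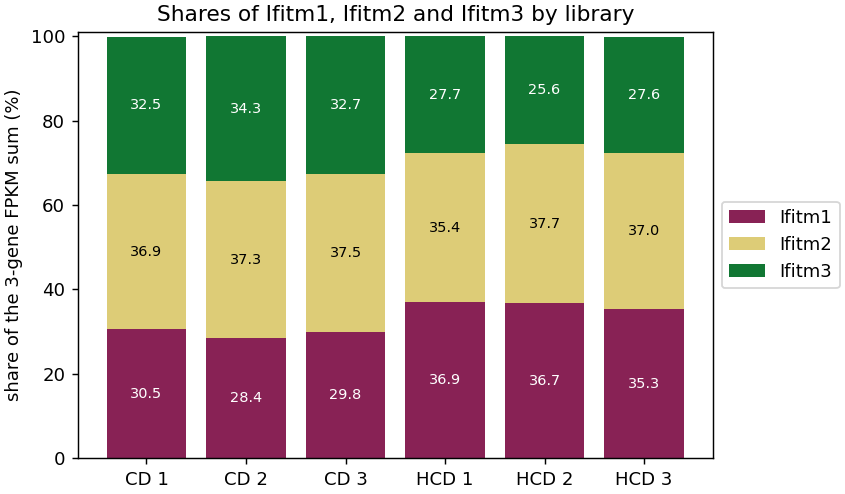
Share of the summed FPKM of Ifitm1, Ifitm2 and Ifitm3 (vertical axis, percent) taken by each gene in each of the 6 libraries, printed in the bars. Ifitm1 holds 28.4% to 30.5% in CD and 35.3% to 36.9% in HCD, Ifitm3 holds 32.5% to 34.3% and 25.6% to 27.7%, and Ifitm2 stays between 35.4% and 37.7%.

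In the fit across all tested genes (limma on log2(FPKM + 1)), the log2 difference of HCD from CD was 0.40 ± 0.051 (SE) for Ifitm1, 0.08 ± 0.058 for Ifitm2 and -0.19 ± 0.05 for Ifitm3. Of the 3 tested members 1 was past an adjusted p of 0.05 as higher (Ifitm1) and 1 as lower (Ifitm3). Over all tested genes 13.9% were past that threshold, 6.28% as higher and 7.66% as lower, and the groups did not overlap in 37.7%, made up of 22.7% with HCD lower and the rest with HCD higher. Nothing is read from the members' count, since this contrast was in view when they were chosen. The call of Ifitm3 ended with trimmed-mean scaling factors, without a filter on low values, and when any single library other than HCD replicate 2 was left out, while its log2 difference ran from -0.15 to -0.31 over all alternatives. The log2 difference of Ifitm1 ran from 0.27 to 0.43 over the alternatives. The Ifitm2 difference turned to -0.06 with quantile normalization and to -0.01 with the length trend removed.

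Reads behind the 3 abundant members were many. With the depth estimated below, Ifitm2 was covered by about 4180 to 5100 reads or fragments per library and Ifitm3 by about 3560 to 4160. For Ifitm1 the estimate was 2840 to 4250 with its shortest annotated transcript (560 bp) and 4470 to 6690 with its longest (882 bp). Counting error alone would be 1.49% to 1.88% of the value. The SD between libraries was 3.04% of the mean for Ifitm1 in CD and 4.53% in HCD, 2.27% and 6.94% for Ifitm2, and 5.06% and 1.80% for Ifitm3.

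The members are paralogs, and reads from stretches they share could be split or misplaced between them. Their coding sequences were 321 bp in Ifitm1, 435 bp in Ifitm2, 414 bp in Ifitm3 and 375 bp in Ifitm6. Aligned coding bases were identical in 81.6% between Ifitm1 and Ifitm2, 81.9% between Ifitm1 and Ifitm3, and 80.8% between Ifitm2 and Ifitm3. Ifitm6 shared 65.9% to 68.8% with these. Exact stretches were shorter: of all 50-base windows, 1.80% to 2.94% of an Ifitm1 transcript, 3.30% of Ifitm2 and 5.56% of Ifitm3 occurred in another Ifitm gene, and none of Ifitm6. Ifitm2 has 48.5% of its windows in some other GENCODE gene model, among them Gm45717, which overlaps it on the same strand and has no row in the tables. How the authors' counting treated such reads is not given in the sources used here, so the levels of Ifitm1, Ifitm2 and Ifitm3 carry that uncertainty.

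Ifitm6, a less studied member of the cluster, was close to 0 under CD and low under HCD. It was listed at 0.00, 0.20 and 0.10 FPKM in the CD libraries and at 2.22, 0.74 and 1.16 FPKM in the HCD libraries. All HCD libraries were above all CD libraries, and within HCD replicate 2 was lowest. Reads were estimated by searching for the shortest unit length at which every library lay within 0.08 of a whole number. That length was 539 bp, while the annotated transcripts are 663 to 813 bp. Whole numbers are thus the rule of the search and not a finding. The estimate was 0, 2 and 1 reads in CD and 24, 8 and 12 reads in HCD. The summed 44 against 3 estimated reads give a ratio per depth of 14.1. Its exact 95% Clopper-Pearson interval, 4.53 to 71.2, covers counting error only. It leaves out error in the unit length and the spread between libraries, from 8 to 24 reads in HCD. Reads are not replicates of a diet, and the family was chosen by these values, so nothing is read from the interval. A listed 0 allows up to 3 reads, or 0.294 FPKM. Ifitm6 did not pass the filter. In the alternative without a filter on low values, limma gave it a log2 difference of 1.07 ± 0.215 (SE), past the threshold, on the log2(FPKM + 1) scale. In that setting 1149 of 15603 genes were past it. The group means of Ifitm6 were 0.10 ± 0.10 and 1.38 ± 0.76 FPKM.

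Ifitm10, a member outside the cluster, was at the limit of detection. It was listed at 0.00, 0.00 and 0.02 FPKM in CD and at 0.00, 0.03 and 0.01 FPKM in HCD. The same search put this at no more than 3 reads in a library. Its unit of 5465 bp exceeds the longest annotated transcript (3412 bp), so that read number is uncertain. The groups overlapped, and a difference was not detectable at this depth. Among other family genes, Ifitm5, known from bone, had an estimated 9 to 14 reads in CD and 8 to 22 in HCD. Ifitm7 on chromosome 16 had an estimated 11 to 19 and 13 to 46. Both overlapped between diets and stayed below the filter.

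Marker lists of several cell types, granulocytic cells among them, moved in the same direction as Ifitm1 and Ifitm6, and others did not. For the counts below, 6.28% of all tested genes were called higher and 7.66% lower. Of 10 markers of granulocyte and monocyte progenitors, 7 were higher under HCD by limma and 1 was lower (Csf3r, log2 difference -0.35). The summed level of these 10 was 967 to 988 FPKM in CD and 1732 to 1889 FPKM in HCD. Of 10 markers of mature neutrophils 6 passed the filter and all 6 were higher. Several of them were under 1 FPKM in CD, so that the filter itself leans that count towards rises. That list summed to 13.3 to 13.5 FPKM in CD and to 41.9 to 50.6 FPKM in HCD, with S100a8 (a calcium-binding protein of neutrophils) at 4.81 ± 0.91 and 19.1 ± 2.58 FPKM. None of the markers in either list was at 0 in all libraries. In HCD replicates 1, 2 and 3 the neutrophil sum was 46.3, 50.6 and 41.9 FPKM, highest in replicate 2, where Ifitm1 was highest and Ifitm6 lowest. Among monocyte and macrophage markers 3 of 7 tested were higher and 2 lower, and megakaryocyte and platelet markers were higher in 5 of 6, with sums of 53.0 to 57.0 and 87.0 to 102 FPKM. The part of other cell types in the Ifitm1 and Ifitm6 values was not tested. In bulk RNA a change in the number of cells of a type and a change in RNA per cell cannot be told apart. Of the gate's positive markers, Kit measured 122 ± 0.84 and 118 ± 3.94 FPKM and Ly6a, the SCA1 gene, 66.7 ± 2.89 and 61.6 ± 2.08. Transcripts of the markers the gate selects against were abundant too, Cd34 at 471 ± 15.4 and 458 ± 17.0 and Flt3, the CD135 gene, at 114 ± 1.19 and 104 ± 4.12 FPKM. Of 10 tested stem and progenitor markers 1 was higher and 2 lower, with sums of 961 to 988 and 925 to 950 FPKM. The B cell list summed to 64.6 to 77.7 and 130 to 148 FPKM (1 of 4 tested higher), T and NK cells to 105 to 110 and 129 to 151 (2 of 3 higher, 1 lower, with Cd3e at 0 in all libraries) and erythroid cells to 31.8 to 33.6 and 29.1 to 31.5 (1 of 5 higher, 1 lower). Dendritic cell markers summed to 195 to 201 and 171 to 180 FPKM (2 of 4 lower). That list holds Bst2, also an interferon-stimulated gene described below, and Flt3, also a stem and progenitor marker. Endothelium summed to 49.4 to 50.8 and 56.3 to 59.1 (2 of 5 higher, 1 lower) and stroma and bone to 16.7 to 18.7 and at least 24.2 (2 of 2 higher).

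The summed FPKM of a library was 427769 to 433592 in CD and 435919 to 462951 in HCD, highest in HCD replicate 2. In each library 10549 to 10675 genes reached 1 FPKM. The step that 1 read makes in low values put the depth between 18840000 and 20000000 reads or fragments. HCD replicate 2 stood apart: its median absolute log2 difference from the other HCD libraries was 0.134 and 0.146, against 0.0698 between those and 0.0682 to 0.0769 among CD libraries. Across all tested genes 1488 were past the threshold, 670 higher and 818 lower, and with trimmed-mean scaling factors the split was 785 higher and 597 lower.

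Transcript length also moved with the diets, and the members are short. Across the 10354 of 10676 tested genes with a length, Spearman's rho between length and log2 difference was -0.25. Genes are not independent replicates, so this is a description. The 457 tested genes whose longest transcript is under 1000 bp had a median log2 difference of 0.05, against -0.03 over all tested genes. Ifitm1 lay above and Ifitm3 below both medians. With the length trend removed from each library, the differences were 0.33 ± 0.048 (SE) for Ifitm1, -0.01 ± 0.054 for Ifitm2 and -0.28 ± 0.053 for Ifitm3, each lower than without that step.

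**Figure D3:**
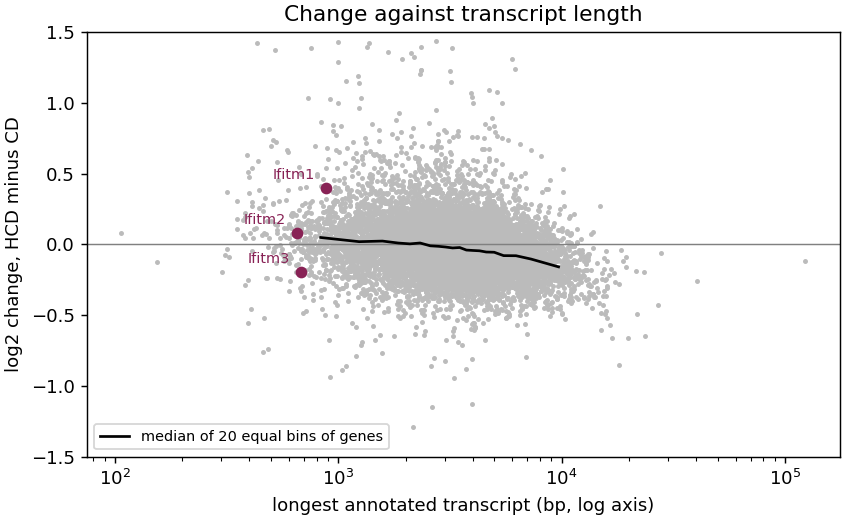
Log2 difference of HCD from CD (vertical axis, cut at 1.5 in either direction, which leaves out 14 genes) against the longest annotated transcript (horizontal log axis, bp) for 10354 tested genes in grey, with the median of 20 equal bins as a line and the 3 tested members in purple. The line falls with length, and the members lie at its short end, Ifitm1 (0.40) above the level of the line and Ifitm3 (-0.19) below.

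The interferon pathway that feeds the family was described next, from ligands to targets. Transcripts of interferons themselves were nearly absent: of 14 ligand genes, 12 were at 0 in all 6 libraries, and the list summed to at most 0.28 FPKM in any library. This says nothing of interferon made by other cells. All 5 tested receptor genes missed the threshold. Ifnar1 and Ifnar2, the type I receptor chains, measured 14.3 ± 0.44 and 30.7 ± 0.94 FPKM in CD and 14.2 ± 0.79 and 31.0 ± 1.07 in HCD. Ifngr1, a chain of the type II receptor, measured 49.4 ± 3.41 and 56.9 ± 1.91 FPKM (limma adjusted p = 0.0519).

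Irf9, which encodes the DNA-binding partner of STAT proteins in type I signalling, measured 30.1 ± 0.43 and 26.5 ± 1.38 FPKM (adjusted p = 0.0548, limma). Among the other interferon regulatory factors 1 of 7 tested rose, Irf5, from 7.95 ± 0.28 to 9.81 ± 0.34 FPKM, and that call was lost on leaving out any library but HCD replicate 2. Irf7, itself interferon-induced, measured 16.2 ± 0.90 and 15.4 ± 1.13 FPKM and Irf1 38.8 ± 0.59 and 40.4 ± 6.52, without a call. Of 8 feedback genes 1 fell and 1 rose, beside 7.66% and 6.28% over all tested genes. Usp18, which encodes a brake on type I receptor signalling and is interferon-induced, fell from 9.48 ± 1.05 to 5.69 ± 0.36 FPKM. Socs3, a feedback inhibitor of cytokine receptors, rose from 30.6 ± 0.91 to 45.0 ± 6.23.

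Over all tested genes 7.66% were called lower and 6.28% higher. Of 53 tested interferon-stimulated genes outside the family, from 58 listed, 12 fell, 1 rose and 40 did not pass. The median log2 difference was -0.16, against -0.03 over all tested genes, and 11 of the 53 had a positive difference. Beside this group Ifitm3 (-0.19) stood near the median and Ifitm1 (0.40) stood above every member except Oas1c. Oas2 and Oas3, sensors that activate RNase L, fell from 9.49 ± 1.09 to 5.16 ± 1.77 and from 10.6 ± 0.16 to 7.92 ± 0.74 FPKM. Ifi44 fell from 13.0 ± 0.75 to 8.56 ± 0.89, Rtp4 by 0.51 on the log2 scale and the ubiquitin ligase gene Trim25 from 24.1 ± 1.22 to 17.6 ± 1.25 FPKM. Bst2 (tetherin, which holds budding viruses at the cell surface) fell from 80.8 ± 1.60 to 68.7 ± 0.80 and Ifi27 from 93.3 ± 5.08 to 75.9 ± 1.97 FPKM. The remaining fallers were Ifi27l2a, Adar, Irgm1, Irgm2 and Eif2ak2. The riser, Oas1c, went from 3.78 ± 0.25 to 5.46 ± 0.61 FPKM. Ly6e, an abundant member of the list, measured 275 ± 6.63 and 293 ± 5.57 FPKM without a call.

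The summed level of these genes was 1418, 1423 and 1413 FPKM in the CD libraries and 1320, 1363 and 1318 FPKM in the HCD libraries, and was lower in every HCD library. In HCD replicates 1, 2 and 3, 44, 39 and 41 of the 53 lay below their CD mean, with median log2 differences of -0.17, -0.12 and -0.16. In CD replicates 1, 2 and 3, which make up that mean, 27, 26 and 27 did. Such counts by library were not taken over all tested genes, whose median log2 difference was -0.03. The count of fallers depended on single libraries: it was 3, 5 and 3 without CD replicate 1, 2 or 3, 7 without HCD replicate 1 and 22 without HCD replicate 2. It stayed between 8 and 16 under the other alternatives. Of the 21 tested list members with the ISRE core in their promoter window, 5 fell and 1 rose, with a median log2 difference of -0.17. Of the 21 with a window but without the core, 3 fell and 0 rose, with a median of -0.16. The difference between these subsets was not tested. Within the family, the windows of Ifitm3 and Ifitm2 held the core and that of Ifitm1 did not. Upstream starts of Ifitm1 lie outside its window. A link between the core and the members' differences was not tested, and Ifitm2 was not called.

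**Figure D4:**
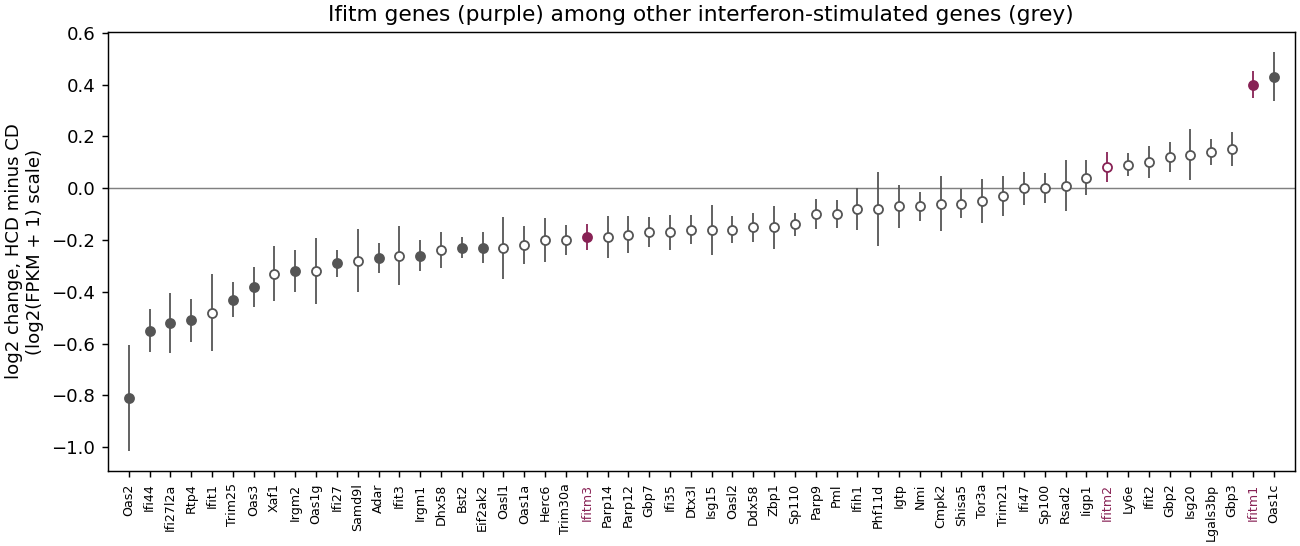
Log2 difference of HCD from CD with its SE (vertical axis, log2(FPKM + 1) scale) for 53 interferon-stimulated genes in grey and the 3 tested Ifitm genes in purple, ordered by value, with filled points past an adjusted p of 0.05. Most grey points lie below 0, Ifitm3 (-0.19) lies among them, and Ifitm1 (0.40) is next to the highest.

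Genes for proteins that bind or modify IFITM proteins were counted in the same way. Of 14 tested, 2 rose and 1 fell, beside 13.9% of all tested genes past the threshold in either direction. The median log2 difference of the 14 was 0.01. Zdhhc20, which encodes an enzyme that attaches palmitate to IFITM3, rose by 0.23 on the log2 scale (limma adjusted p = 0.0263), a call lost on leaving out any library but HCD replicate 2. Nedd4, the gene of a ubiquitin ligase that marks IFITM3 for degradation, fell from 127 ± 2.11 to 107 ± 0.47 FPKM (adjusted p = 0.0065, limma). Cd9, a tetraspanin gene, rose from 31.6 ± 2.25 to 45.3 ± 2.82 FPKM, while Cd81, the tetraspanin gene whose product is found with IFITM1, measured 73.7 ± 1.06 and 67.5 ± 1.55 without a call. Vapa, Zmpste24, Setd7, Kdm1a and Abhd16a did not pass, nor did the palmitoyltransferase genes Zdhhc3, Zdhhc7 and Zdhhc15. Of 10 tested genes for other restriction factors 1 rose and 0 fell, a share near that 13.9%. The riser was Serinc3, from 496 ± 0.97 to 559 ± 20.3 FPKM. Its call was lost under 3 of the alternatives that keep all libraries and on leaving out any library but HCD replicate 2. Only 2 of 9 other CD225 domain genes, Prrt2 and Tmem265, were tested, and neither passed.

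Within 250 kb of the cluster the tables hold 26 other genes, of which 15 were tested, 2 rose and 0 fell, a share near the 13.9% over all tested genes. Sirt3, a mitochondrial deacetylase gene, rose from 46.3 ± 1.93 to 55.5 ± 2.94 FPKM, and B4galnt4 from 4.72 ± 0.47 to 6.37 ± 0.69. Both calls were lost on leaving out any CD library or HCD replicate 1, and that of B4galnt4 also without HCD replicate 3. The nearest tested genes on either side, Psmd13 and B4galnt4, lie -96.1 and 80.4 kb from the centre, and Psmd13 measured 71.0 ± 2.63 and 69.9 ± 7.48 FPKM. Irf7 lies at the far edge of this window, 278.2 kb from the centre. Around Ifitm10, 4 of 18 genes were tested and none passed, among them the abundant lysosomal protease gene Ctsd at 177 ± 4.47 and 189 ± 12.7 FPKM.

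**Figure D5:**
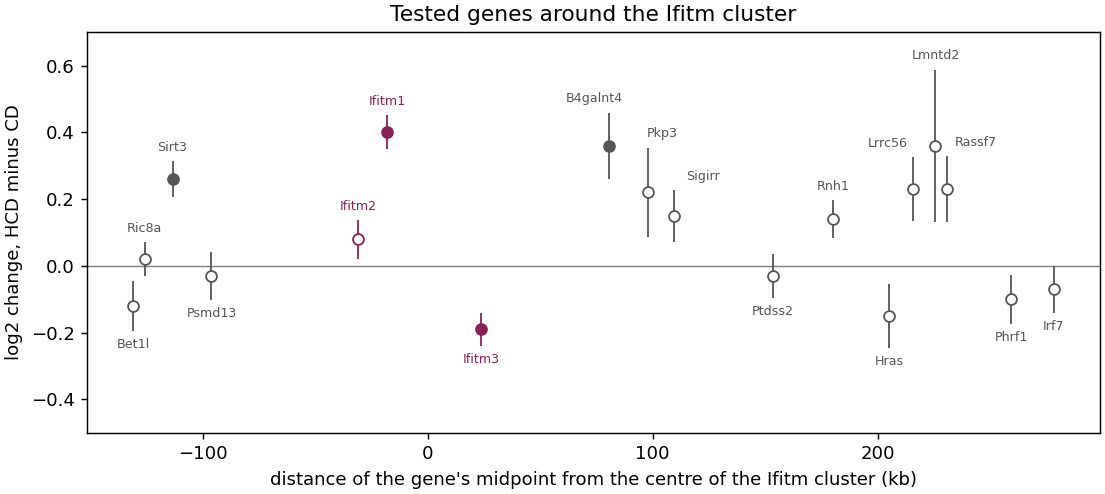
Log2 difference of HCD from CD with its SE (vertical axis) for tested genes against the distance of each gene's midpoint from the centre of the Ifitm cluster (horizontal axis, kb), members in purple, filled points past an adjusted p of 0.05. Ifitm1 (0.40) and Ifitm3 (-0.19) lie on opposite sides of 0 within the same cluster, and among the 15 other genes Sirt3 and B4galnt4 are the filled points.

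Genes whose values ran most like each member over the 6 libraries were taken by Pearson's r of log2(FPKM + 1). The libraries fall into diet groups, so r mostly reflects that contrast, and it is given as a description of likeness only. For Ifitm1 the 5 nearest genes were Fcgr3 (an IgG receptor gene of myeloid cells, r = 0.9977), Hvcn1 (a proton channel gene), Emilin2, Mmp14 and Tmem40 (r = 0.9956). All 5 were past the threshold as higher, with Fcgr3 from 1.45 ± 0.26 to 5.44 ± 0.88 FPKM and Hvcn1 from 5.72 ± 0.14 to 10.2 ± 0.74. For Ifitm3 they were Pwwp2b (r = 0.9973), Ogdh, Fam136a, Gtf2a1 and Cand1 (r = 0.9908), of which Fam136a and Cand1 were called lower, the latter not under any scaling alternative. For Ifitm2 they were 1110059G10Rik (r = 0.9953), Lsm5, Avpi1, Sec61b and Nckap1l (r = 0.982), none of them called. With 6 points high values are common: 270, 96 and 22 tested genes had r over 0.95 with Ifitm1, Ifitm3 and Ifitm2.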

How the data were processed

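RNA-seq of 6 libraries (CD and HCD, 3 each) was analysed. Per the labels' protocols, stranded mRNA libraries were made from column-extracted RNA. Per the submitters' processing notes, the tools were fastp, HISAT2 and StringTie and the build GRCm38 (mm10). Tool versions, the annotation and any filter are not stated there. The deposited values are in FPKM, judged from the values, as a header holds no more than a sample name. Dates stood where symbols belong in 27 of 21878 rows (0.127% of the FPKM), which were dropped.

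limma 3.58.1 (R 4.3.3) with trend and robust empirical Bayes was run on log2(FPKM + 1), two-sided and unpaired, for genes that reached 1 FPKM in 3 or more libraries. Benjamini-Hochberg adjustment ran over all tested genes, with a threshold of 0.05. Fold changes on this scale understate those of low genes. The fit was also tested on simulated data. Members and lists were chosen with earlier results of these data known. Named genes were all members, the 5 genes most like each, those within 250 kb, and list genes by smallest p or highest level. Depth came from the modal size of 1 read over genes with 1 annotated transcript. Deviations from the group means across genes correlated in same-numbered CD and HCD libraries at r = 0.103, 0.292 and 0.166. Pairs of unlike number ran from -0.25 to 0.0983, so number 1 stood barely above them. The labels state no pairing, and whether one exists was not tested. Because titles share numbers, a fit with the replicate number as a block was an alternative. Other alternatives were quantile normalization, a filter raised to 5 FPKM or removed, a pseudocount of 0.1, trimmed-mean (TMM-type) factors, removal of the length trend, and leaving out each library. Positions are from GENCODE vM21. The list of JAK and STAT genes is not reported in full here.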

Additional observations from a re-analysis of the deposited data

How the results depend on the processing

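The alternatives were listed with the tests. The count of genes past the threshold (1488) ran from 435 to 2672 when single libraries were left out, higher ones from 258 to 1171 and lower ones from 177 to 1501. It stayed within 1.5 times of 1488 with every other setting, and was 1873 with the replicate block, which ended no call of a named gene. Past the threshold were 2 members, but 1 with trimmed-mean factors and 1 to 2 on leaving out a library, as the call of Ifitm3 was lost. Without a filter the count was also 2, but the members were Ifitm1 and Ifitm6, and Ifitm3 was not past it. In that setting 1149 of 15603 genes were past the threshold. Among interferon-stimulated genes the risers numbered 0 with a filter of 5 FPKM, which removes Oas1c, and 0 to 1 without a library. The fallers numbered 3 to 22 without a library. Of 30 named genes past the threshold, members apart, none changed direction in any setting, and 13, 14 and 14 stayed past it without CD replicate 1, 2 or 3, against 17, 30 and 21 without HCD replicate 1, 2 or 3. Fewer libraries are part of these losses by construction, and what else adds to them was not tested. Depth limits Ifitm6 and Ifitm10, which rest on an estimated maximum of 24 and 3 reads in a library.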
